A study of Mus musculus with 11 samples.

Results

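The mitochondrial genome of the mouse carries 37 annotated genes, and all 37 were followed here through hearts of 3 groups. They were taken as every row of the count table placed on chromosome MT, 37 of 54532 genes in all. By biotype they were 13 mRNAs, 2 rRNAs and 22 tRNAs. By strand, 12 mRNAs, both rRNAs and 14 tRNAs lay on the plus strand of the annotation and are called heavy-strand transcripts, after the DNA strand that serves as their template. The light-strand transcripts were mt-Nd6 and the other 8 tRNAs. All 37 matched GENCODE release M21 by identifier and by coordinates.

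C57BL/6 mice gave the hearts, frozen whole and labelled 26 weeks, whose RNA was sequenced after rRNA depletion with a RiboZero kit. The METTL3 group held 4 libraries from hearts labelled HFD+STZ with METTL3 delivered by AAV, the HFD+STZ group 4 libraries labelled HFD+STZ alone, and the Chow group 3 libraries. HFD+STZ commonly stands for a high-fat diet with streptozotocin, which kills insulin-producing cells, and METTL3 is the catalytic subunit of an RNA adenosine methyltransferase complex. METTL3 hearts set against HFD+STZ hearts ask about added METTL3 in diabetic heart, and HFD+STZ against Chow about the diabetic model. METTL3 against Chow changes both conditions at once. Whether the HFD+STZ or Chow mice received a control virus, which promoter drove METTL3, and the sex and age of the mice are stated in none of the sources used here. The labels do not say that replicates came from separate animals, so the p-values cover only how these libraries vary, and that variation may be technical.

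Mitochondrial DNA is transcribed from both strands into long precursor RNAs, and most mRNAs and rRNAs are freed when the tRNAs between them are cut out. The mRNAs encode core subunits of respiratory complexes I, III and IV and of the ATP synthase, complex V, and the rRNAs and tRNAs serve the mitochondrial ribosome that translates them. Heart muscle is dense in mitochondria, and mitochondrial transcripts make up a large part of its RNA.

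The tRNAs that passed the test of METTL3 against Chow hearts are shown first, as the genes they come from, because they lie at both kinds of position: mt-Tw and mt-Tr between heavy-strand mRNAs, and mt-Tp, mt-Tc and mt-Tn on the opposite strand. The sequences are those of GENCODE release M21 on GRCm38, written 5′ to 3′ in DNA letters on the strand of the gene, with the anticodon in capitals.
mt-Tw, tRNA for tryptophan, chrMT:4950-5016, plus strand: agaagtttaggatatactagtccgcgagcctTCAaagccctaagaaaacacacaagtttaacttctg
mt-Tr, tRNA for arginine, chrMT:9808-9875, plus strand: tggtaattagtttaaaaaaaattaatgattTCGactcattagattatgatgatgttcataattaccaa
mt-Tp, tRNA for proline, chrMT:15356-15422, minus strand: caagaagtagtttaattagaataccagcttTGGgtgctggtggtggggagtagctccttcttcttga
mt-Tc, tRNA for cysteine, chrMT:5192-5257, minus strand: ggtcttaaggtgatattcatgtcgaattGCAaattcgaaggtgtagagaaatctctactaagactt
mt-Tn, tRNA for asparagine, chrMT:5089-5159, minus strand: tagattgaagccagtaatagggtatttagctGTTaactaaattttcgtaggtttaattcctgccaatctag

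Libraries held 13900531 to 16952639 counts, and mitochondrial genes took 9.28% to 45.5% of them. The Chow 3 library stood apart. It had 9.28% mitochondrial counts against 25.3% and 27.4% in Chow 1 and 2, counts for 15704 nuclear genes where the other 10 libraries had 17285 to 20734, and rRNA at 13.5% of its mitochondrial counts where the others had 2.12% to 4.22%. The comparisons with Chow hearts are therefore also given without Chow 3. METTL3 libraries had fewer nuclear counts, 7651470 to 8982819, against 10454785 to 11989987 in HFD+STZ and 11537045 to 12994921 in Chow libraries. They also had fewer nuclear genes with a count than HFD+STZ libraries, 17285 to 19124 against 19782 to 20377. The part of these differences in the mitochondrial levels was not tested. Mettl3 itself, the check of the METTL3 label, had 9.64, 6.52, 6.57 and 10.8 CPM in METTL3 hearts, against 7.82, 7.42, 4.39 and 5.78 in HFD+STZ hearts and 7.88, 7.42 and 3.04 in Chow hearts. The Mettl3 values are in CPM, counts scaled to a TMM library size of 1e+06, as are the levels below. The groups overlap, so every direction given for METTL3 hearts rests on the label of the library. In bulk RNA such as this, fewer cells of a type and less RNA per cell cannot be told apart.

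**Figure D1:**
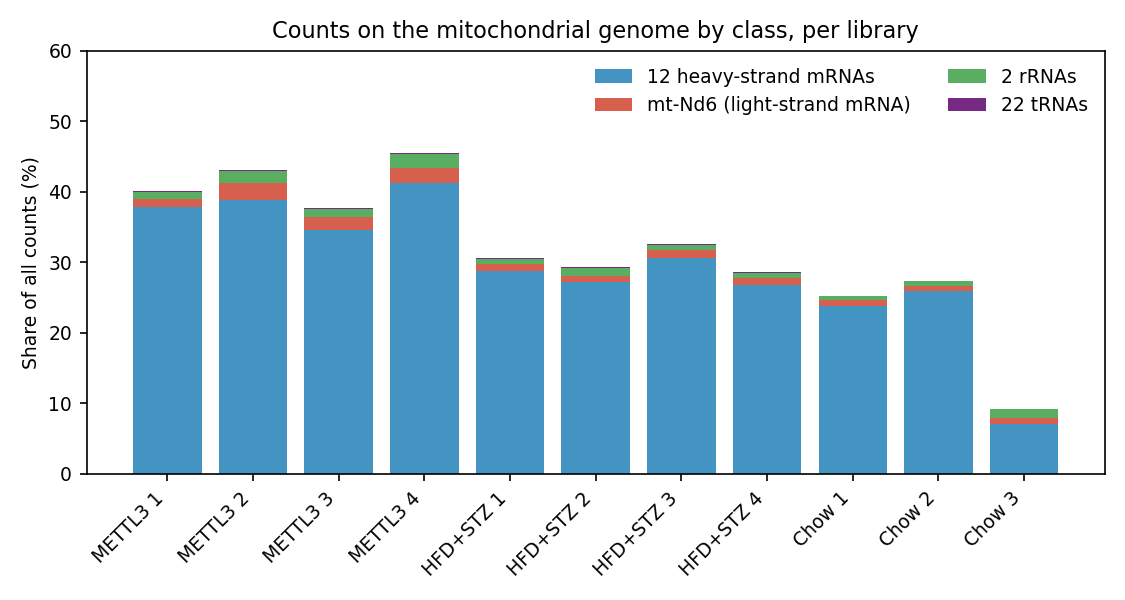
Percent of all counts of each library (vertical axis) that fell on the 12 heavy-strand mRNAs, on mt-Nd6, on the 2 rRNAs and on the 22 tRNAs, stacked, for the METTL3, HFD+STZ and Chow libraries from left to right. Heavy-strand mRNAs make up 90.1% to 94.6% of mitochondrial counts in the other 10 libraries and 76.8% in Chow 3, the tRNAs are too few to be seen, and Chow 3 has the shortest bar, with a broader rRNA band.

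Of the 37 genes, 30 had enough counts for testing. The 7 that did not are tRNAs: mt-Tf, mt-Tv, mt-Ts1, mt-Td, mt-Tk, mt-Tg and mt-Tt, none with more than 10 counts in any library. The first of these, mt-Tf, the tRNA for phenylalanine at the start of the annotated genome, had 0 counts in all 11 libraries, which with 3 counts as the upper limit allows 0.177 to 0.216 CPM of the unscaled library, for counting error only. CPM compares 1 gene between libraries. Genes are compared with each other only in CPM per kilobase of gene.

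Per kilobase, mt-Co1, the catalytic core of complex IV, was the most abundant mitochondrial RNA, with a mean of 85129 CPM per kilobase over the 11 libraries. It was followed by mt-Cytb, the only mitochondrially encoded subunit of complex III, at 39828 CPM per kilobase and mt-Nd1 of complex I at 38544. Next came mt-Nd2 at 27280.4, mt-Nd6 at 26013, mt-Nd4 at 19587 and mt-Nd5 at 16265 CPM per kilobase. Then came a step down: mt-Rnr2, the large-subunit rRNA, at 5285, mt-Co2 at 4540.2, mt-Atp6 at 4022, mt-Co3 at 3724 and mt-Rnr1, the small-subunit rRNA, at 2838 CPM per kilobase. Both rRNAs were measured after rRNA depletion, so their levels are what the depletion left. The lowest mRNA genes on this scale were mt-Nd4l at 735, mt-Nd3 at 369.8 and mt-Atp8 at 40.8 CPM per kilobase. They are also the shortest, at 297, 348 and 204 bases. mt-Nd4l shares 7 bases with mt-Nd4, and mt-Atp8 shares 43 with mt-Atp6, with which it shares an mRNA. The part of gene length and read assignment in these low values was not tested. Among tRNAs mt-Tp led with 4078 and mt-Tc with 3006 CPM per kilobase, ahead of mt-Te, the tRNA for glutamate, at 1783 and mt-Tn at 1391. The order is that of the mean over the 11 libraries, and neighbours change places between groups: mt-Nd6 was at 43926 and mt-Nd2 at 43801 CPM per kilobase in METTL3 hearts, mt-Co2 at 4221 and mt-Rnr2 at 3926 in HFD+STZ hearts, and mt-Rnr1 at 2012 and mt-Atp6 at 1819 in Chow hearts. These levels depend on how reads shared between genes were assigned, which no source used here states. The tRNA genes are 59 to 75 bases long, and counts on them do not tell a mature tRNA from a longer precursor RNA.

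**Figure D2:**
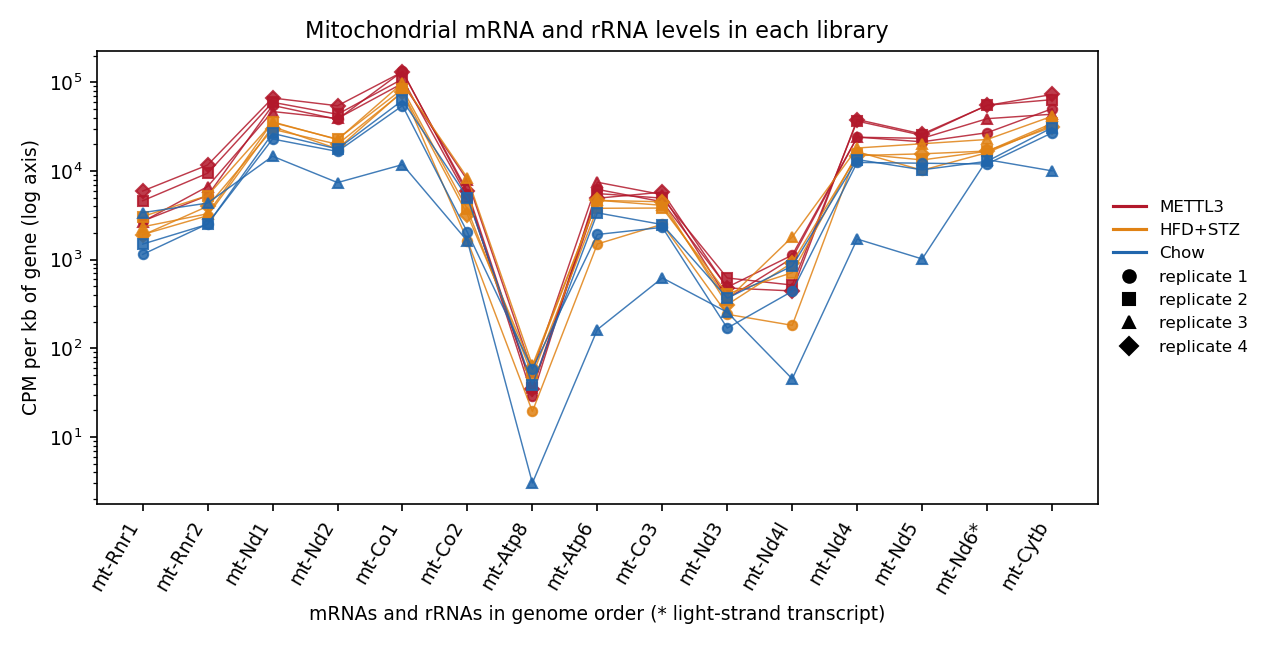
CPM per kilobase of gene (vertical log axis) of the 2 rRNAs and 13 mRNAs in genome order, 1 line per library, with color for the group and the marker for the replicate; mt-Nd6, marked with an asterisk, is the light-strand mRNA. mt-Co1 is highest in the 10 libraries other than Chow 3 and mt-Atp8 is lowest in all 11, and Chow 3 lies below every other library at each mRNA except mt-Nd3 and mt-Nd6.

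Relative to all genes, METTL3 hearts had more mitochondrial RNA than HFD+STZ hearts for most genes measured, but no mitochondrial gene passed the test, as no gene in the whole table did. Of 30 tested members, 0 passed the edgeR test at a Benjamini-Hochberg adjusted p of 0.05, and the share over all 14862 genes tested was 0%. The log2 fold change was above 0 for 25 of the 30, where 49.6% of all genes lay above 0. At an unadjusted p of 0.05, 14 of 30 were higher and 0 lower, where 5.43% of all genes were higher and 3.63% lower. With DESeq2, 6 of the 30 were called, where 1.11% of all genes were, and with limma voom 7, where 2.66% of all genes were. In CPM, 14 of the 30 were higher in every METTL3 library than in every HFD+STZ library and 0 were lower, where 5.43% of all genes were higher in that way and 4.14% lower. The 14 comprised 7 mRNAs, 1 rRNA and 6 tRNAs. The median log2 fold change was 0.69 for the 13 mRNAs, 0.93 for the rRNAs and 0.73 for the 15 tested tRNAs, beside -0.0036 for all genes. With mitochondrial counts as the library size, which sets each gene against the other mitochondrial genes, the median of the mRNAs was 0.0086. Within the libraries with sample codes of 25 to 33, METTL3 1 to 3 and HFD+STZ 2 to 4, it was 0.50 and 0 members were called, as were 0% of all genes. The codes from 78 to 98 hold 1 METTL3 and 1 HFD+STZ library, too few for a value.

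Of the complex I subunits, mt-Nd6 differed most. It had 14011, 28593, 20170.4 and 28416 CPM in METTL3 hearts, against 8349, 8653, 11753 and 8707 CPM in HFD+STZ hearts. The lowest METTL3 library lies above the highest HFD+STZ library, and the METTL3 libraries differ among themselves by more than the gap between the groups. The log2 fold change was 1.28 (SE 0.25; edgeR, Benjamini-Hochberg adjusted p = 0.342). For mt-Nd2 the libraries had 39666, 45216, 40564 and 56416 CPM in METTL3 hearts, against 18429.9, 23702, 23453 and 20754 CPM in HFD+STZ hearts. For mt-Nd1 they had 52546, 56950.5, 44784 and 63601 CPM in METTL3 hearts, against 30308, 33701, 34240.1 and 28244 CPM in HFD+STZ hearts. Neither of these membrane-arm subunits overlapped between the groups, and the HFD+STZ libraries lay close together. Their log2 fold changes were 1.07 (SE 0.27) for mt-Nd2 and 0.78 (SE 0.23) for mt-Nd1, with edgeR Benjamini-Hochberg adjusted p of 0.350 and 0.365. The subunits at the distal end of the membrane arm were also higher in every METTL3 library: mt-Nd4 by 0.91 (SE 0.46, adjusted p = 0.589 with edgeR) and mt-Nd5 by 0.69 (SE 0.52, adjusted p = 0.731) on the log2 scale. For mt-Nd4l, a small subunit, the values overlapped widely, with 132 to 334 CPM in METTL3 hearts and 54.0 to 535 CPM in HFD+STZ hearts. For mt-Nd3 they were 170, 216, 127 and 167 CPM in METTL3 hearts, against 84.3, 144, 123 and 108 CPM in HFD+STZ hearts. Only METTL3 3 lay within the HFD+STZ range. The log2 fold change of mt-Nd3 was 0.56 (adjusted p = 0.534 with edgeR).

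Complex IV is the last enzyme of the chain. Its catalytic subunit mt-Co1 had 205250.4, 168133, 150229.8 and 202430.5 CPM in METTL3 hearts, against 121544, 129778, 151587 and 118932 CPM in HFD+STZ hearts. The groups touch, because METTL3 3 lies just under HFD+STZ 3. On the log2 scale mt-Co1 differed by 0.48 (SE 0.39; edgeR, Benjamini-Hochberg adjusted p = 0.765). The other subunits were mt-Co2, which carries a copper centre, with 3502 to 5372 CPM in METTL3 hearts and 1119.6 to 5708 CPM in HFD+STZ hearts, and mt-Co3, which had 3525 to 4524 and 1967 to 3526 CPM in METTL3 and HFD+STZ hearts. Their log2 fold changes were 0.53 (SE 0.45, adjusted p = 0.773 with edgeR) for mt-Co2 and 0.47 (SE 0.35, adjusted p = 0.730) for mt-Co3. Complex III was represented by mt-Cytb, with 57461, 72821, 49928 and 83339.5 CPM in METTL3 hearts, against 37599, 39322, 47351 and 35907 CPM in HFD+STZ hearts. Here too the groups did not overlap, with a log2 fold change of 0.72 (SE 0.32; edgeR, Benjamini-Hochberg adjusted p = 0.534).

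The ATP synthase subunits mt-Atp8 and mt-Atp6 overlap on the genome by 43 bases and are read from 1 mRNA. The proton-channel subunit mt-Atp6 had 3356 to 5082 CPM in METTL3 hearts and 1023 to 3186 CPM in HFD+STZ hearts, with no overlap. Its log2 fold change was 0.72 (adjusted p = 0.773 with edgeR). The small subunit mt-Atp8 had 5.88, 7.35, 11.2 and 7.17 CPM in METTL3 hearts, against 3.96, 10.1, 13.1 and 12.2 CPM in HFD+STZ hearts. For mt-Atp8 the groups overlap throughout, and its log2 fold change was -0.32 (SE 0.59, adjusted p = 0.921 with edgeR).

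The rRNAs followed the same order of groups. The large-subunit rRNA mt-Rnr2 had 8352, 14931, 10561 and 18450.0 CPM in METTL3 hearts, against 4961, 8345, 5212 and 6322 CPM in HFD+STZ hearts. The small-subunit rRNA mt-Rnr1 had 2599, 4407, 2562 and 5673 CPM in METTL3 hearts, against 1832, 2926, 2239.9 and 1806 CPM in HFD+STZ hearts. METTL3 2 and 4 were the highest for both rRNAs. For mt-Rnr2 the lowest METTL3 library is level with the highest HFD+STZ library, and for mt-Rnr1 METTL3 1 and 3 lie below HFD+STZ 2. The log2 fold changes were 1.07 (SE 0.30, adjusted p = 0.351 with edgeR) for mt-Rnr2 and 0.79 (SE 0.36, adjusted p = 0.540) for mt-Rnr1. The ratio of mt-Rnr2 to mt-Rnr1 counts ran from 2.12 to 4.12 over the 11 libraries.

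Among the tRNAs, mt-Tw had the smallest p. It had 54.3, 65.6, 68.3 and 74.9 CPM in METTL3 hearts, against 18.4, 32.3, 33.7 and 29.9 CPM in HFD+STZ hearts. The sequence of mt-Tw above lies directly downstream of mt-Nd2, whose last bases it overlaps on the same strand. Whether its counts come from the mature tRNA or from RNA that also holds mt-Nd2 cannot be told. The log2 fold change of mt-Tw was 1.20 (SE 0.20, adjusted p = 0.342 by edgeR with Benjamini-Hochberg adjustment). For mt-Tp, a light-strand tRNA, the values were 346, 555, 337 and 538 CPM in METTL3 hearts, against 215, 231, 239.6 and 183 CPM in HFD+STZ hearts. For mt-Tc, also on the light strand, they were 240.0, 265, 282 and 369 CPM in METTL3 hearts, against 122, 226, 205 and 184 CPM in HFD+STZ hearts. None of these tRNAs overlapped between the groups. Their log2 fold changes were 1.03 (SE 0.27) for mt-Tp and 0.65 (SE 0.23) for mt-Tc, with edgeR Benjamini-Hochberg adjusted p of 0.350 and 0.447. The scarcer mt-Tr had 10.7, 8.02, 6.87 and 9.59 CPM in METTL3 hearts, against 2.29, 4.80, 4.60 and 4.57 CPM in HFD+STZ hearts, a log2 fold change of 1.11 (SE 0.31, adjusted p = 0.351 with edgeR).

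A library-wide trend moved with this comparison. Across 14851 genes, the log2 fold change of METTL3 against HFD+STZ fell with GC content, with a Spearman rho of -0.50 as a description over genes that are not independent. Tested mitochondrial genes have a median GC content of 35.8%, and range from 22.1% to 44.9%, where nuclear genes have a median of 49.6%. After a smooth GC trend was removed from each library, a setting chosen after seeing the data, the median log2 fold change of the 13 mRNAs was 0.21 in place of 0.69, and 22 of 30 members lay above 0. The part of GC content in the difference between the groups was not tested beyond this.

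In HFD+STZ hearts against Chow hearts most mitochondrial genes were again higher, none past the test. Of 30 members 0 were called by edgeR with Benjamini-Hochberg adjustment, where 0.135% of all genes were called higher and 0.0336% lower, 0.168% together. The log2 fold change was above 0 for 28 of 30, where 48.4% of all genes lay above 0. In all, 8 were higher and 0 lower at an unadjusted p of 0.05, where 5.58% of all genes were higher and 6.53% lower. DESeq2 called 1 of the 30, where it called 2.14% of all genes, and limma voom 9, where it called 13.1% of all genes. The groups did not overlap in CPM for 9 members, all higher in HFD+STZ hearts, where 5.52% of all genes were higher without overlap and 4.88% lower. These were 7 mRNAs and 2 tRNAs. The median log2 fold change was 0.63 for the mRNAs, 0.26 for the rRNAs and 0.61 for the tRNAs. Without Chow 3 the median of the mRNAs was 0.40, and with mitochondrial counts as the library size it was -0.055. HFD+STZ 2 to 4 have sample codes of 26 to 28, whereas HFD+STZ 1 (83) and the Chow libraries (94 to 98) have higher codes. Group and code range thus largely coincide here, and their parts can hardly be told apart. With the code range in the edgeR fit 0 members were called, where 0.00673% of all genes were called.

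The smallest p belonged to tRNAs of the light strand. For mt-Tc the Chow libraries had 105, 114 and 68.7 CPM beside the HFD+STZ values given above, with a log2 fold change of 0.94 (SE 0.25; edgeR, Benjamini-Hochberg adjusted p = 0.193). For mt-Tn the values were 56.6, 139, 140.1 and 88.6 CPM in HFD+STZ hearts, against 48.9, 58.2 and 55.6 CPM in Chow hearts, with a log2 fold change of 0.97 (SE 0.29; edgeR, Benjamini-Hochberg adjusted p = 0.236). HFD+STZ 1 lies inside the Chow range for mt-Tn, and the other HFD+STZ libraries lie above it. Next were mt-Tp with 0.86 (SE 0.30, adjusted p = 0.316) and mt-Tw with 0.60 (SE 0.22, adjusted p = 0.325), both by edgeR.

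Of the mRNAs mt-Co3, a structural core subunit of complex IV, had the smallest p. It had 1967, 2995, 3211 and 3526 CPM in HFD+STZ hearts, against 1815, 1950.2 and 488 CPM in Chow hearts. HFD+STZ 1 is level with Chow 1 and 2, and Chow 3 is far below. The log2 fold change was 1.04 (SE 0.39; edgeR, Benjamini-Hochberg adjusted p = 0.331). For mt-Co1 the Chow libraries had 84104, 96543 and 18234 CPM, all below HFD+STZ, with a log2 fold change of 0.98 (SE 0.43; edgeR, Benjamini-Hochberg adjusted p = 0.397). For mt-Nd1 they had 21938, 25406 and 14033 CPM, again all below HFD+STZ, with 0.63 (SE 0.25, adjusted p = 0.357). For mt-Nd6 Chow had 6223, 6669.7 and 6964 CPM, with 0.50 (SE 0.27, adjusted p = 0.453). The rRNAs did not separate these groups: mt-Rnr2 had 4000.3, 3959.8 and 6868 CPM in Chow hearts, and mt-Rnr1 1094, 1430.4 and 3239.6 CPM, each with Chow 3 inside or above the HFD+STZ range. Without Chow 3 the log2 fold changes were 0.81 for mt-Rnr1, where all 3 Chow libraries gave 0.20 (SE 0.39, adjusted p = 0.853), 0.65 for mt-Rnr2 in place of 0.33 (SE 0.32, adjusted p = 0.669), 0.54 for mt-Co1, 0.64 for mt-Co3, 0.42 for mt-Nd1 and 0.54 for mt-Nd6. Those of mt-Tc, mt-Tn, mt-Tp and mt-Tw were then 0.76, 0.99, 0.56 and 0.51, and edgeR with Benjamini-Hochberg adjustment still called 0 members, where 0.512% of all genes were called.

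METTL3 hearts against Chow hearts was the comparison in which mitochondrial genes passed the test. It shares its libraries with the comparisons above and is no separate support for them. By edgeR with Benjamini-Hochberg adjustment 9 of 30 members rose and 0 fell, where 1.82% of all genes were called higher and 1.37% lower, 3.2% together. The log2 fold change was above 0 for 29 of 30, where 49.2% of all genes lay above 0. The 9 were the complex I mRNAs mt-Nd6, mt-Nd1 and mt-Nd2, the rRNA mt-Rnr2, and the tRNAs mt-Tw, mt-Tp, mt-Tc, mt-Tn and mt-Tr. By strand, they were 5 of 22 tested heavy-strand and 4 of 8 tested light-strand transcripts. At an unadjusted p of 0.05, 23 of 30 were higher and 0 lower, where 10.6% of all genes were higher and 11.1% lower. The groups did not overlap for 22 of 30, all higher in METTL3 hearts, where 10.5% of all genes were higher without overlap and 8.26% lower. DESeq2 called 18 of the 30 and limma voom 19, where DESeq2 called 10.2% of all genes and voom 20.7%. The median log2 fold change was 1.45 for the mRNAs, 1.20 for the rRNAs and 1.33 for the tRNAs, and for the mRNAs it was -0.12 with mitochondrial counts as the library size.

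The largest called difference in log2 terms was that of mt-Tp, which had 133, 163 and 64.1 CPM in Chow hearts and rose 3.70-fold, a log2 fold change of 1.89 (SE 0.31, edgeR Benjamini-Hochberg adjusted p = 0.0160). With 20.7, 19.5 and 16.3 CPM in Chow hearts, mt-Tw rose 3.49-fold, 1.80 (SE 0.22, adjusted p = 0.00726), and every METTL3 library had 54.3 CPM or more. The complex I mRNA mt-Nd6 rose 3.44-fold, 1.78 (SE 0.28, adjusted p = 0.0125). Chow 3 did not stand apart for mt-Nd6, mt-Tw or mt-Tn. For mt-Nd2, Chow had 17227, 18383 and 7677 CPM, and the rise in METTL3 hearts was 3.15-fold, 1.66 (SE 0.31, adjusted p = 0.0236). For mt-Nd1 it was 2.66-fold, 1.41 (SE 0.26, adjusted p = 0.0213). The tRNAs mt-Tc and mt-Tn rose 3.01-fold and 2.30-fold, with adjusted p of 0.0160 and 0.0456. The rRNA mt-Rnr2 rose 2.65-fold, 1.40 (SE 0.33, adjusted p = 0.0424), and mt-Tr, with 2.95, 2.31 and 4.73 CPM in Chow hearts, 2.63-fold, 1.40 (SE 0.34, adjusted p = 0.0470).

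Of the mRNAs that did not pass, mt-Co3 and mt-Cytb came closest, with log2 fold changes of 1.51 (SE 0.39) and 1.35 (SE 0.36) and edgeR Benjamini-Hochberg adjusted p of 0.0560 and 0.0575. The most abundant, mt-Co1, had 1.45 (SE 0.44, adjusted p = 0.0870), mt-Nd4 had 1.73 (SE 0.52, adjusted p = 0.0845) and mt-Nd5 1.61 (SE 0.58, adjusted p = 0.135). These are as large as the called differences, with wider errors. Chow had 17204, 18535 and 2355 CPM for mt-Nd4 and 22305, 18789 and 1858 CPM for mt-Nd5, so Chow 3 carries much of that spread. For mt-Atp8 the log2 fold change was 0.21 (SE 0.64, adjusted p = 0.889), and Chow had 11.9, 7.96 and 0.619 CPM.

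The 9 calls differed in how far they rested on single libraries. The call of mt-Tw held in all 11 fits that left out 1 library, with adjusted p up to 0.0370 by edgeR with Benjamini-Hochberg adjustment. That of mt-Nd6 was lost without Chow 2 (0.0552), and those of mt-Tc and mt-Tp without METTL3 4 (0.0566 and 0.0571). For mt-Nd1 the call was lost without METTL3 1, METTL3 4 or Chow 2, and for mt-Nd2 without METTL3 1, METTL3 3, METTL3 4 or Chow 2. Those of mt-Rnr2, mt-Tn and mt-Tr were kept only without HFD+STZ 1 or without Chow 3. Without Chow 3, 18 of 30 members were called, the 9 above among them, where 4.92% of all genes were called. The other 9 were mt-Co1, mt-Co3, mt-Cytb, mt-Nd4, mt-Nd5, mt-Rnr1, mt-Te, mt-Tl1 and mt-Ts2, so that both rRNAs and all the most abundant mRNAs were then called. In that fit mt-Nd6 had a log2 fold change of 1.81, mt-Tw of 1.70, mt-Rnr2 of 1.71 and mt-Co1 of 1.00, and the median log2 fold change of the 13 mRNAs was 1.08 in place of 1.45. The log2 fold changes of METTL3 against Chow also fell with GC content, with a rho of -0.35 across genes. After that trend was removed, mt-Tp, with a log2 fold change of 1.75 and an adjusted p of 0.0254, and mt-Tw, with 1.42 and 0.0224, were called, 2 of 30, where 0.579% of all genes were called, and the median of the mRNAs was 1.05. The sample codes run from 25 to 33, with no Chow library among these, and from 78 to 98. When the code range entered the fit 0 of the 30 were called, where 0.00673% of all genes were called, and no source used here says what the codes stand for.

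**Figure D3:**
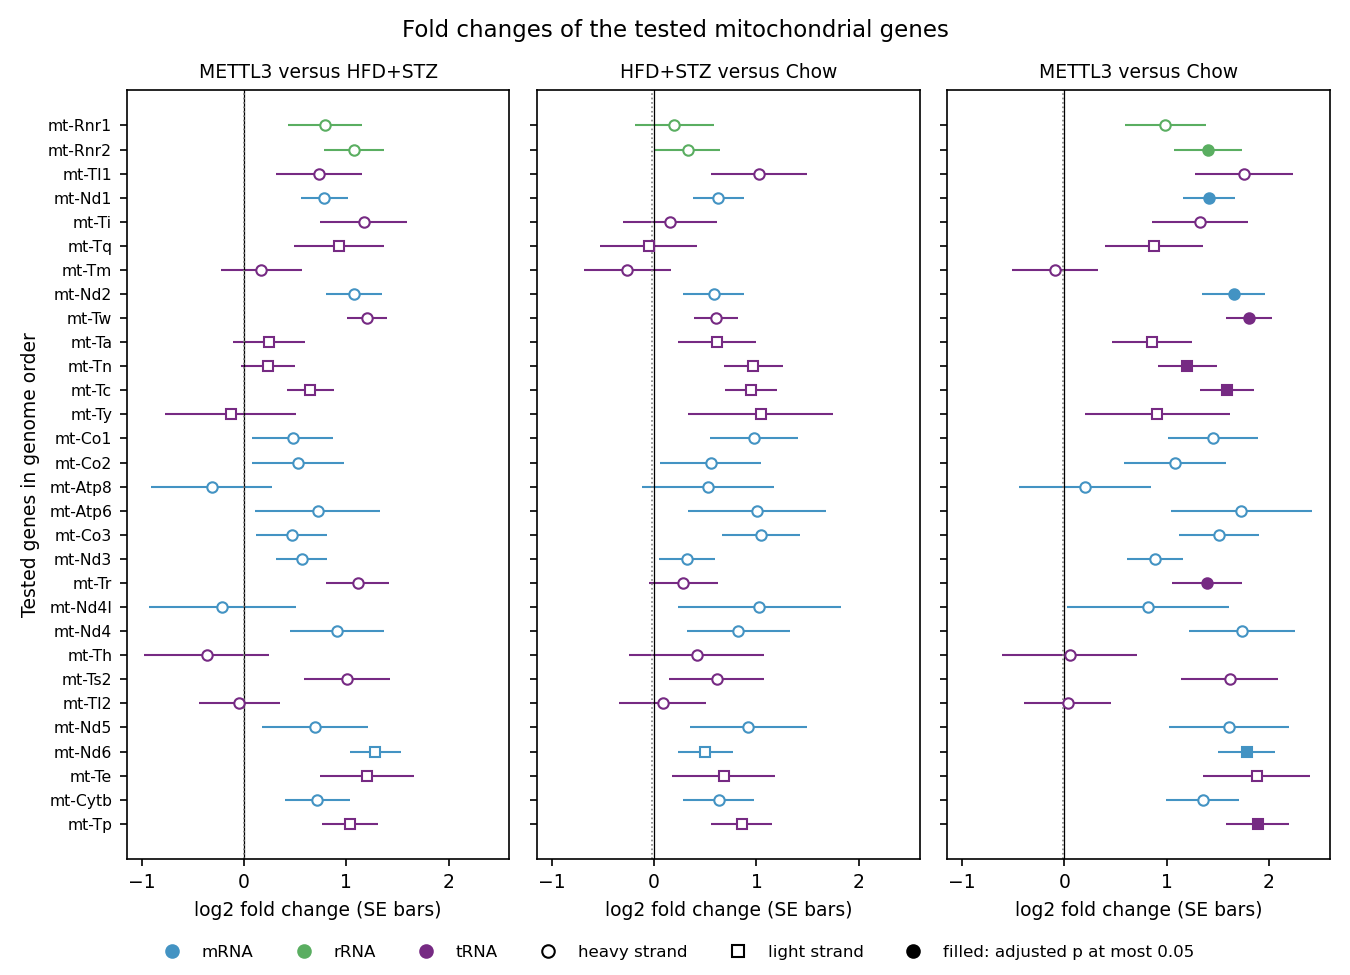
Log2 fold change (horizontal axis) with its standard error for the 30 tested mitochondrial genes in METTL3 against HFD+STZ, HFD+STZ against Chow and METTL3 against Chow hearts, with the median of all genes as a dotted line. Squares are light-strand and circles heavy-strand transcripts, and filled symbols mark an adjusted p of at most 0.05, which 9 genes reach in METTL3 against Chow and 0 in the others.

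Shares of the mitochondrial counts set each gene against the others. mt-Nd6 made up 3.01%, 5.72%, 4.91% and 4.97% of mitochondrial counts in METTL3 hearts, against 3.10%, 2.87%, 3.34% and 3.11% in HFD+STZ hearts and 2.96%, 2.86% and 9.31% in Chow hearts. The METTL3 2, 3 and 4 libraries were above all HFD+STZ libraries, METTL3 1 was among them, and Chow 3 was the highest of all. mt-Co1 went the other way, with 44.1%, 33.6%, 36.6% and 35.4% in METTL3 hearts, against 45.2%, 43.0%, 43.1% and 42.5% in HFD+STZ hearts and 40.03%, 41.3% and 24.4% in Chow hearts. Again METTL3 1 sits with the HFD+STZ libraries. The 7 complex I mRNAs together took 38.4% to 45.5% in METTL3 hearts, 36.6% to 38.3% in HFD+STZ hearts and 40.5%, 37.8% and 44.1% in Chow hearts. Complex III, which is mt-Cytb alone, took 12.2% to 14.6% in METTL3 hearts, 12.8% to 13.97% in HFD+STZ hearts and 14.7%, 15.1% and 15.3% in Chow hearts, where all 3 libraries were above the other 8.

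The ratio of the overlapping pair separated METTL3 from HFD+STZ hearts. Counts of mt-Atp8 were 0.139%, 0.194%, 0.220% and 0.214% of those of mt-Atp6 in METTL3 hearts, against 0.388%, 0.390%, 0.411% and 0.386% in HFD+STZ hearts, and 0.910%, 0.347% and 0.558% in Chow hearts. All METTL3 values lie below all others, and the HFD+STZ values are close to each other. The ratio was picked out after its values were seen and has no test, it rests on 11 to 230 counts of mt-Atp8 per library, and it depends on how reads in the 43 shared bases were assigned. Counting a nuclear copy of mt-Atp6 with it left the groups apart, at 0.107% to 0.170% in METTL3 hearts and 0.262% to 0.305% in HFD+STZ hearts.

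**Figure D4:**
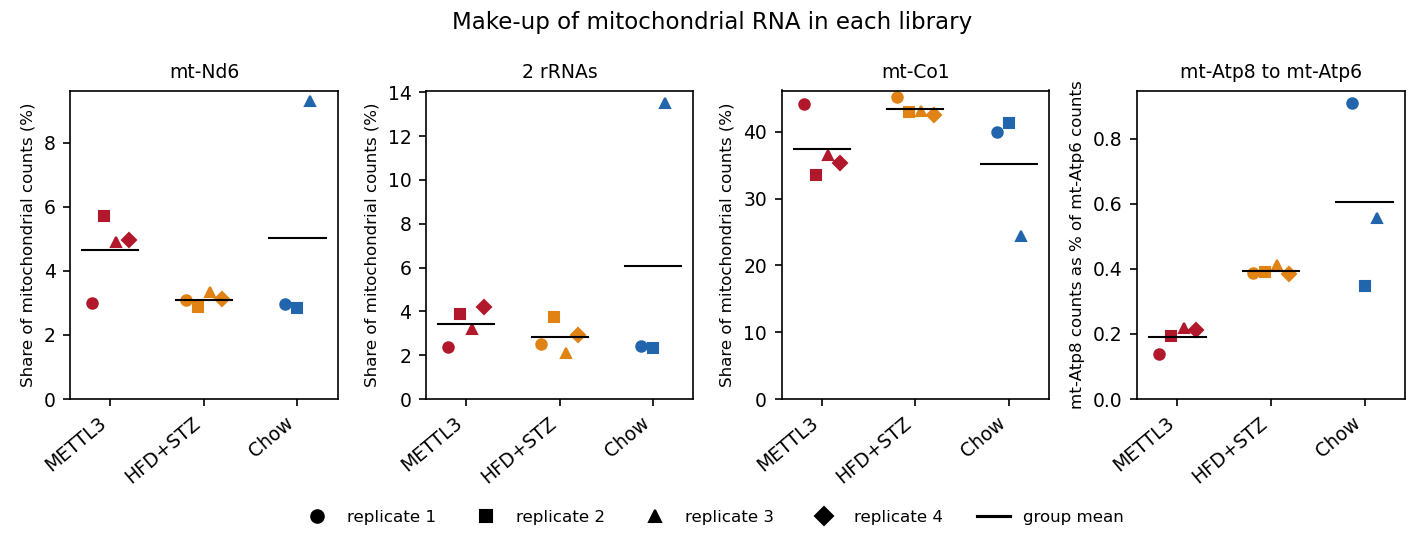
Share of mitochondrial counts (percent) of mt-Nd6, the 2 rRNAs and mt-Co1, and mt-Atp8 counts as a percent of mt-Atp6 counts, for each METTL3, HFD+STZ and Chow library (points), with group means as black lines. The METTL3 points for mt-Atp8 relative to mt-Atp6 all lie under the HFD+STZ points, and Chow 3 is the highest for mt-Nd6 and the rRNAs and the lowest for mt-Co1.

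Chow 3 differed from Chow 1 and 2 gene by gene. Relative to their mean it had 2.57 times the mt-Rnr1, 1.73 times the mt-Rnr2, 1.08 times the mt-Nd6 and 1.04 times the mt-Tn level. It was lower 16.2-fold for mt-Atp6, 16.05-fold for mt-Atp8, 14.2-fold for mt-Nd4l, 11.1-fold for mt-Nd5, 7.59-fold for mt-Nd4 and 4.95-fold for mt-Co1. Among the other mRNAs it was lower 1.69-fold for mt-Nd1, 2.17-fold for mt-Co2 and 2.32-fold for mt-Nd2, and for mt-Nd3 it had 0.951 times their mean. Of the tRNAs, mt-Ty, for tyrosine, was 36.2-fold lower and mt-Te 7.75-fold lower, whereas mt-Ts2 had 2.47, mt-Tl2 1.91, mt-Tr 1.80 and mt-Th 1.58 times the mean of Chow 1 and 2. In Chow 3 the light-strand transcripts made up 9.59% of mitochondrial counts, beside 3.06% to 5.95% in the other 10. The mt-Nd6 and mt-Nd5 genes overlap by 14 bases on opposite strands, and the ratio of their counts was 3.75 in Chow 3 and 0.279 to 0.622 elsewhere. No source used here states the strand setting of the counting, so mt-Nd6 reads cannot be told apart from antisense reads of that region, and likewise for the other light-strand genes.

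Over the 11 libraries the median Pearson r of the log2 CPM of an mRNA with the other 12 mRNAs was lowest for mt-Nd3, at 0.589, and mt-Nd6, at 0.656. It was 0.701 for mt-Atp8, 0.706 for mt-Co2 and 0.743 for mt-Nd4l, and 0.864 to 0.915 for the other 8 mRNAs. All of these share libraries and scaling and are descriptions only. In Chow 3, mt-Nd3 and mt-Nd6 had 0.951 and 1.08 times the mean of Chow 1 and 2, whereas the other mRNAs were 1.69-fold to 16.2-fold lower. No r here or below was computed without Chow 3, so its part in these correlations was not tested. The genes of the whole table with the profile most like mt-Nd6 were Zmym5 (r = 0.968), Rnf152 (0.954), Zfp326 (0.954), Phf20l1 (0.951) and Tia1 (0.947), all nuclear, and the first mitochondrial gene was mt-Tw at rank 12 (0.937). For mt-Rnr2 they were Ppp2ca (0.936), Iqcb1 (0.930), Lpl (0.922), Slc25a36 (0.921) and mt-Rnr1 (0.920).

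Part of the mitochondrial genome has a copy in the nuclear genome, and reads of both cannot be separated where the sequences are identical. On chromosome 1, between 24611535 and 24616197 on GRCm38, lie 7 annotated copies with counts, 6 of them identical to the mitochondrial gene over the aligned stretch. Those of mt-Co2 (681 bases aligned), mt-Co3 (783), mt-Atp6 (678), mt-Nd3 (342) and mt-Nd4l (294) span nearly the whole gene, and those of mt-Nd4 (876) and mt-Co1 (483) a part. The first 60 bases of mt-Nd3 and of its copy Gm28438, with the base that differs in capitals, show how close they are; the difference, T3C, is counted from base 1 of mt-Nd3 and lies just before the aligned stretch.
mt-Nd3, chrMT:9459-9518, plus strand: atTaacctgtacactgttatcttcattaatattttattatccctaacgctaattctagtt
Gm28438, chr1:24613060-24613119, minus strand: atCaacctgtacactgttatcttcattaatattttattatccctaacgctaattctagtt
The copy of mt-Co1, Gm29216, is the one with a difference inside the aligned stretch, A1066T, counted from base 1 of mt-Co1 and again in capitals.
mt-Co1, chrMT:6390-6422, plus strand: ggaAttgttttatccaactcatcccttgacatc
Gm29216, chr1:24616156-24616188, minus strand: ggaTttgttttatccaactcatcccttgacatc

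Of the counts of mt-Nd3 and its copy together, the copy took 41.7% to 74.7% over the 11 libraries. The copies of mt-Co2, mt-Atp6, mt-Co3 and mt-Nd4l took 20.2% to 46.8%, 20.9% to 46.0%, 17.5% to 35.4% and 12.5% to 31.9%. By contrast the copy of mt-Nd4 took 0.322% to 2.50% and that of mt-Co1 0.347% to 1.42%. The level of mt-Nd3, mt-Co2, mt-Atp6, mt-Co3 and mt-Nd4l is thus uncertain to that degree. Of 7 tested copies 2 rose in METTL3 against Chow hearts, where 1.82% of all genes were called higher. These were Gm28661 of mt-Co2 and Gm29216 of mt-Co1. They rose by 1.33 (SE 0.33, adjusted p = 0.0480) and 1.73 (SE 0.36, adjusted p = 0.0312) on the log2 scale, by edgeR with Benjamini-Hochberg adjustment. With the copies added to their genes, a setting chosen after seeing the data, 9 members were called in METTL3 against Chow hearts, where 3.19% of all genes were called, and mt-Nd3 in HFD+STZ against Chow hearts had a log2 fold change of -0.03 in place of 0.32.

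**Figure D5:**
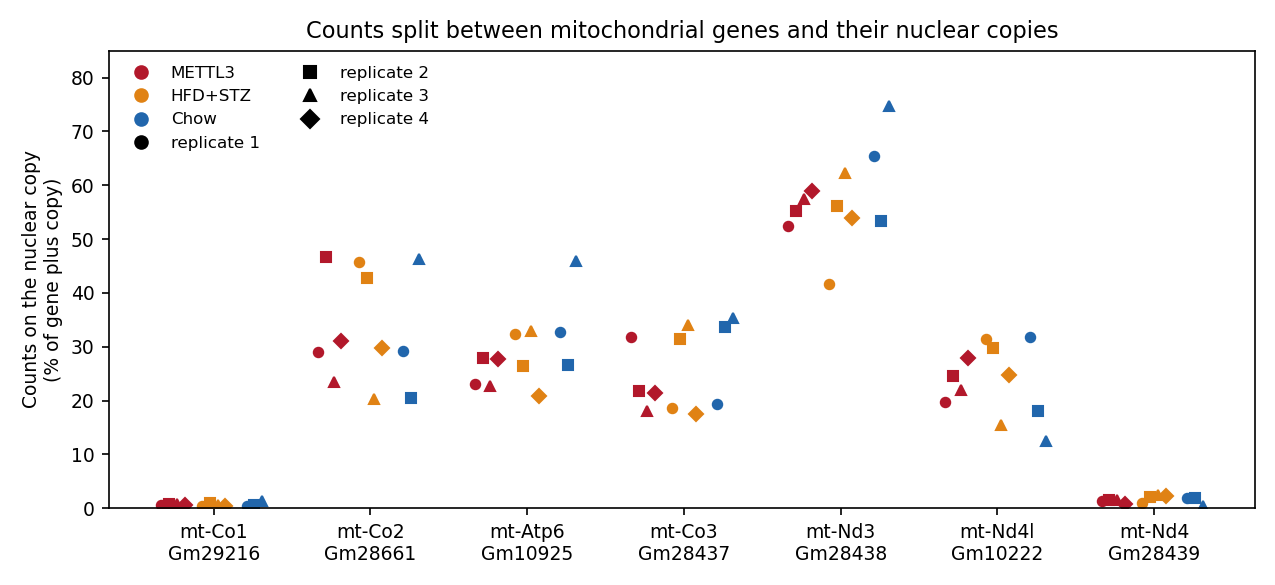
Percent of the counts of a mitochondrial gene and its copy on chromosome 1 together that were assigned to the copy (vertical axis), for each of 7 genes, with 1 point per METTL3, HFD+STZ and Chow library. The copy of mt-Nd3 takes the largest share, 41.7% to 74.7%, and those of mt-Nd4 and mt-Co1 lie near 0.

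Nuclear genes that serve mitochondrial DNA and RNA were examined as lists. Over all genes, 0% passed the edgeR test in METTL3 against HFD+STZ, 0.168% in HFD+STZ against Chow and 3.2% in METTL3 against Chow hearts. A count of 0 in a short list is near these shares. Of 9 tested transcription factors of mitochondrial DNA 0 passed the edgeR test in any comparison, and their median log2 fold changes were 0.23 in METTL3 against HFD+STZ, -0.13 in HFD+STZ against Chow and 0.08 in METTL3 against Chow hearts. Tfam, which packages mitochondrial DNA and starts its transcription, had 48.9, 40.4, 41.8 and 52.9 CPM in METTL3 hearts, against 36.3, 37.6, 41.5 and 41.9 CPM in HFD+STZ hearts and 37.8, 38.9 and 52.3 CPM in Chow hearts. Polrmt, the mitochondrial RNA polymerase, had 25.7 to 34.9, 27.7 to 37.4 and 26.1 to 29.8 CPM in METTL3, HFD+STZ and Chow hearts. All these ranges overlap. Of 18 tested genes of RNA processing and tRNA maturation 0 passed in any comparison, with medians of 0.06, 0.07 and 0.11. Of 9 tested DNA replication genes, and of 10 genes of rRNA modification, 0 passed. Of the replication genes Rnaseh1, which removes RNA primers, had -1.14 in METTL3 against Chow hearts (adjusted p = 0.0685 by edgeR).

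In the list of RNA stability and decay, 1 of 8 genes passed in METTL3 against Chow hearts, where 3.2% of all genes did. In METTL3 against HFD+STZ hearts 0 of 8 passed, where 0% of all genes did. In HFD+STZ against Chow hearts 0 of 8 passed, where 0.168% of all genes did. Slirp, whose protein binds mitochondrial mRNAs with Lrpprc, fell by 4.13 on the log2 scale (SE 0.88, edgeR Benjamini-Hochberg adjusted p = 0.0320). It had 0, 0, 2 and 2 counts in METTL3 libraries, against 20, 33, 8 and 27 counts in HFD+STZ libraries and 20, 19 and 47 in Chow libraries. Against HFD+STZ hearts Slirp had -3.90 (SE 0.86) on the log2 scale, with an adjusted p of 0.350. The counts are few, and the gene overlaps Snw1 by 3132 bases on the opposite strand, so its value is uncertain. Lrpprc, which keeps mitochondrial mRNAs stable, had 250.3 to 292.8 CPM in METTL3 hearts, against 153 to 280.1 CPM in HFD+STZ hearts and 186 to 283 CPM in Chow hearts, with a log2 fold change of 0.32 (SE 0.20, adjusted p = 0.660 by edgeR) between METTL3 and HFD+STZ.

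The nuclear-encoded partners of the mitochondrial subunits are set beside them as a list. Of 32 tested nuclear subunits of complexes I, III, IV and V 0 passed the edgeR test in any comparison. Over all genes, 0% passed in METTL3 against HFD+STZ, 0.168% in HFD+STZ against Chow and 3.2% in METTL3 against Chow hearts. A count of 0 among 32 is near these shares. The median log2 fold changes of the 32 were -0.04, -0.23 and -0.18 in the same order, beside 0.69, 0.63 and 1.45 for the 13 mitochondrial mRNAs. Their summed level was 22747 to 28327 CPM in METTL3 hearts, 22683 to 29375 CPM in HFD+STZ hearts and 19086 to 36717 CPM in Chow hearts. The smallest p in METTL3 against Chow hearts were those of Atp5o, a stalk subunit of the ATP synthase, with -1.18 (adjusted p = 0.0783), Cox7a1, the heart isoform of a complex IV subunit, with -1.67 (0.0844), and Ndufb8 of complex I with -0.998 (0.101), all by edgeR with Benjamini-Hochberg adjustment.

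Markers of the cells of the heart give the background of these levels. Summed over 12 tested genes, cardiomyocyte markers had 40228 to 45849 CPM in METTL3 hearts, 37026 to 52336 CPM in HFD+STZ hearts and 43560 to 52623 CPM in Chow hearts. The labelled tissue thus showed its main cell type in every library. Of the 12, 0 were called in any comparison. Over all genes, 0% were called in METTL3 against HFD+STZ, 0.168% in HFD+STZ against Chow and 3.2% in METTL3 against Chow hearts. Macrophage markers summed to 72.4 to 138, 124 to 246 and 203 to 390 CPM in METTL3, HFD+STZ and Chow hearts. In METTL3 against Chow hearts 3 of 7 fell, where 1.37% of all genes were called lower. C1qa fell by 2.57, Fcgr1 by 2.52 and Csf1r by 1.33 on the log2 scale, with adjusted p of 0.0101, 0.0472 and 0.0284 by edgeR. Markers of fibroblasts, endothelial cells and red blood cells overlapped between the groups in their sums. The smooth muscle sum was 1342 to 1766 CPM in METTL3 hearts, 861 to 1367 CPM in HFD+STZ hearts and 1086 to 1209 CPM in Chow hearts. Every METTL3 library lay above every Chow library in this sum, but the 5 markers did not share a direction. In METTL3 against Chow hearts Acta2 had -1.03, Rgs5 0.64 and Tagln 0.81 on the log2 scale. The median of the 5 was -0.08. Of the 5, 1 was higher without overlap, where 10.5% of all genes were, and 0 were called in any comparison. The adipocyte sum was 0 to 0.627 CPM in METTL3 hearts, 0 to 3.02 CPM in HFD+STZ hearts and 3.603 to 6.68 CPM in Chow hearts. It holds only the 2 of 5 listed markers that had enough counts for testing. Up to 4 of the 5 had 0 counts in a library, so the adipocyte values rest on few counts. The part of these cells in the mitochondrial differences was not tested.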

How the data were processed

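Whole hearts of 3 groups (METTL3, n = 4; HFD+STZ, n = 4; Chow, n = 3) were profiled in 11 libraries, grouped by their titles. The authors deposited raw counts of each gene in each library, as whole numbers. FastQC, Salmon and the mm10 build are named, without versions, per the submitters' processing notes. No source used here gives the annotation release, whether strand was used, or how shared reads were counted. Tests were run in R 4.3.3 with the quasi-likelihood F test of edgeR 4.0.16, after TMM scaling and filterByExpr (minimum count 10, minimum total 15). A single model held the means of all groups over the 11 libraries. P-values were adjusted by Benjamini-Hochberg over the 14862 genes tested and called at 0.05. The standard error is the log2 coefficient divided by the root of its F. Levels are CPM on TMM-scaled library sizes, and correlations use log2 CPM with a prior count of 2. The members, gene lists and tests were chosen with earlier results of these data known. Total counts of 13900531 to 16952639 per library set the precision; intervals and limits cover counting error only. The procedure was tested on simulated counts with 200 changed genes. Of genes changed by 1 on the log2 scale, it recovered 12.9% in METTL3 against HFD+STZ, 10.9% in HFD+STZ against Chow and 21.3% in METTL3 against Chow. Of those changed by 2 it recovered 66.4%, 72.7% and 67.6%. A gene that did not pass may therefore still differ.

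The text names all mRNAs and rRNAs, the tRNAs with the smallest p or the highest CPM, the untested members, and, in each nuclear list, members past the threshold or with the smallest p; the text gives fewer than this rule allows. The ratio of mt-Atp8 to mt-Atp6 was chosen after its values were seen. Alternatives were DESeq2 1.42.0, voom with quality weights in limma 3.58.1, other scalings and filters, a fit to only the groups compared, a block for the replicate number, a covariate for the sample code range, and the omission of each library in turn. Added after the data had been seen were adding nuclear copies to their genes, leaving out both Chow 3 and HFD+STZ 1, and a loess offset (span 0.5) on transcript GC content, known for 99.9% of tested genes. No library differed from another of its group by as little as sampling noise.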

Additional observations from a re-analysis of the deposited data

Results flagged for a closer look

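In 3 of 62 groups of 4 libraries 1 library lay far from the others of its group, where chance gives about 1 in 20. The level of mt-Nd6 was 11753 CPM in HFD+STZ 3, and 8349 to 8707 CPM in the other HFD+STZ libraries. In HFD+STZ 1 the tRNA mt-Tr had 2.29 CPM, and 4.57 to 4.80 CPM in the others. In the same library mt-Th, the tRNA for histidine, had 0.335 CPM, and 4.04 to 4.499 CPM in the others, from 6 counts against 58 to 74.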

How the results depend on the processing

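Counts of called members depended on the tool and the libraries. The percent in parentheses is the share of all genes tested that the same fit called. With mitochondrial counts as library size that share is no like background, because the scale itself moved the genes. On it the median log2 fold change of all genes was -1.11 in HFD+STZ against Chow and -1.78 in METTL3 against Chow hearts. In METTL3 against HFD+STZ hearts, 6 were called by DESeq2 (1.11%), 7 by limma voom (2.66%), 8 without both Chow 3 and HFD+STZ 1 (2.68%), and 0 in each fit without a single library (0%). The median of the 13 mRNAs was 0.0086 with mitochondrial counts as the library size and 0.21 with the GC offset. In HFD+STZ against Chow hearts, 1 was called by DESeq2 (2.14%), 9 by voom (13.1%), 1 with mitochondrial counts as library size (48.4%), 0 to 2 without single libraries (0.00654% to 1.47%) and 4 without both (3.28%). In METTL3 against Chow hearts, 18 were called by DESeq2 (10.2%), 19 by voom (20.7%), 4 with mitochondrial counts as library size (83.9%), 14 with no filter (2.74%), 2 with only the groups compared (0.38%), 0 with the code range (0.00673%), 2 with the GC offset (0.579%), 19 without both (8.38%) and 2 to 18 without single libraries: 4 without METTL3 1 (0.493%), 5 without METTL3 3 (0.432%), 2 without METTL3 4 (0.257%), 3 without Chow 2 (0.222%) and 18 without Chow 3 (4.92%). The median was -0.12 with mitochondrial counts as library size. Without single libraries the median ran from 0.46 to 0.82, 0.40 to 1.18 and 1.08 to 1.80 in the 3 comparisons, and the difference in mitochondrial share from 10.02 to 12.6, 3.93 to 12.97 and 15.3 to 24.3 percentage points.

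With the replicate number as a block 0 members were called in any comparison, METTL3 against Chow included, where 0.0336% of all genes were called. Same-numbered libraries deviated together in 2 of 10 pairs (r from -0.229 to 0.162), and differently numbered libraries had r from -0.189 to 0.220. The numbers thus gave no sign of a pairing. With so few libraries in a group the check cannot exclude one, and the labels do not say.

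Several log2 fold changes changed sign. With mitochondrial counts as library size, a scale on which each gene is set against the other mitochondrial genes, they were -0.041 for mt-Tc, -0.054 for mt-Co2, -0.22 for mt-Co3 and -0.22 for mt-Co1 in METTL3 against HFD+STZ hearts. In HFD+STZ against Chow hearts they were -0.34 for mt-Nd1, -0.70 for mt-Nd6, -0.055 for mt-Tc, -0.23 for mt-Tn, -0.0085 for mt-Tp, -0.49 for mt-Tw, -1.31 for mt-Rnr1 and -1.03 for mt-Rnr2. In METTL3 against Chow hearts they were -0.26 for mt-Nd1, -0.12 for mt-Nd6, -0.69 for mt-Rnr2, -1.25 for mt-Rnr1, -0.096 for mt-Tc, -0.67 for mt-Tn, -0.64 for mt-Tr, -0.16 for mt-Cytb and -1.0007 for mt-Atp8. Both comparisons with Chow hold Chow 3, and no fit on this scale left it out. The rRNAs took 13.5% of mitochondrial counts in Chow 3, against 2.42% and 2.31% in Chow 1 and 2. Light-strand transcripts, mt-Nd6 among them, took 9.59% in Chow 3, against 3.16% and 3.06%. For mt-Rnr1 in HFD+STZ against Chow hearts, total-count scaling gave -0.081 and leaving out single libraries -0.066 to 0.81. For mt-Nd4l in METTL3 against HFD+STZ hearts the code range gave 0.035, and leaving out single libraries -0.56 to 0.37, the highest without HFD+STZ 3. For mt-Atp8 in METTL3 against Chow hearts voom gave -0.088, total counts -0.26, the code range -0.39, the GC offset -0.54, the fit without both libraries -0.34, and leaving out single libraries -0.34 to 0.86. On the mitochondrial scale the median of all genes was -0.69 in METTL3 against HFD+STZ, -1.11 in HFD+STZ against Chow and -1.78 in METTL3 against Chow hearts. Signs that changed on that scale therefore go with its shift and tell only of a gene's place among mitochondrial genes. The cause of the other sign changes was not tested. Depth limits the scarcest tRNAs and mt-Atp8.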
